A study of Homo sapiens with 16 samples.

Results

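The proteasome is the large protease complex that degrades proteins tagged with ubiquitin. A barrel of alpha and beta rings, the 20S core, holds the cutting sites, and a cap, the 19S particle, recognises, unfolds and feeds in the substrates. When proteasome activity falls, cells raise the expression of the whole set of subunit genes through NFE2L1 (also called NRF1), a CNC transcription factor that binds antioxidant response elements as a dimer with a small MAF protein. MAFG is one of the small MAF proteins, which have no transactivation domain of their own. MITF is the lineage factor of pigment cells and melanoma and binds E-box sequences.

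The 36 genes described here encode 7 alpha subunits (PSMA1 to PSMA7), 7 beta subunits (PSMB1 to PSMB7), 6 ATPases (PSMC1 to PSMC6) and 11 non-ATPase subunits of the cap, 4 activators that bind the ends of the core (PSME1 to PSME4) and the maturation factor POMP. They were chosen by name as a target class of NFE2L1 and small MAF, with earlier results of these data known. All 36 were found among 20037 protein-coding genes. Binding was measured by CUT&RUN, in which an antibody guides a nuclease to its target in isolated nuclei and the released fragments are sequenced. The cells were WM164, a human melanoma line, that overexpressed either GFP ("GFP cells") or MAFG ("MAFG cells"). Each line was profiled with anti-MAFG and anti-MITF, 3 libraries each, and with anti-H3K4me3, a histone mark of active promoters, 1 library each. Each line also had an anti-rabbit IgG sample as negative control, which was not analysed here. The vector, its promoter and whether a line is 1 clone are not given in the sources used here. Nothing in the labels says that numbered replicates came from separate cultures, so their spread may be technical. A peak list holds no protein or RNA level, so neither the overexpression of MAFG nor the expression of the proteasome genes could be checked.

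A gene was counted as having a site in a library when a peak of that library's list overlapped the 5000 bp around either end of the gene, and as having a site in a group when at least 2 of the 3 libraries did. Beside the main shares among the proteasome genes a matched share is given, which is the share among other protein-coding genes of the same length class and with the same H3K4me3 state in GFP cells. No p-value is given over the set, since its genes were chosen with earlier results of these data known. None is given between the lines, since 3 libraries against 3 cannot go below 0.1 by an exact permutation test. The authors' fold enrichments are printed to describe single peaks and are ranked only within a list, since lists of different length and line are not on one scale.

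The sequences below are reference letters at promoters of the set, and binding at single genes is described after them. The TGACNNNGC pattern, the core of the antioxidant response element, was found at 9 places in the RefSeq promoter windows (GRCh38.p14) of 8 proteasome genes. Each is shown 5′ to 3′ on the strand of its gene with the match in capitals, where a match beginning with GC reads TGACNNNGC on the opposite strand. PSMD1 comes first because its match is the one that lay under anti-MAFG peaks in at least 2 libraries of a group. The other 8 are shown because none of them did.
PSMD1, chr2:231056896-231056916, plus strand: aggaggcgacTGACTGAGCag
PSMD3, chr17:39980760-39980788, plus strand: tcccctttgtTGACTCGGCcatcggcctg
PSMD3, chr17:39980830-39980856, plus strand: gtttgcagctGCTCCGTCAtcgtgcgg
PSMB3, chr17:38752627-38752655, plus strand: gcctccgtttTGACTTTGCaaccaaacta
PSMC4, chr19:39971182-39971210, plus strand: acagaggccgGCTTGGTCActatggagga
PSMD12, chr17:67366724-67366752, minus strand: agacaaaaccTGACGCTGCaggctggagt
PSME1, chr14:24136098-24136126, plus strand: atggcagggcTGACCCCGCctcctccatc
PSME2, chr14:24146767-24146795, minus strand: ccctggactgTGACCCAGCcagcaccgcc
PSME4, chr2:53971009-53971037, minus strand: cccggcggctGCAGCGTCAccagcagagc

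The 250 bases upstream of the PSMD1 start are given because the 3 anti-MAFG summits of MAFG cells fell in them. The capitals mark the 24 bases between the outermost of these summits.
PSMD1, chr2:231056617-231056866, plus strand: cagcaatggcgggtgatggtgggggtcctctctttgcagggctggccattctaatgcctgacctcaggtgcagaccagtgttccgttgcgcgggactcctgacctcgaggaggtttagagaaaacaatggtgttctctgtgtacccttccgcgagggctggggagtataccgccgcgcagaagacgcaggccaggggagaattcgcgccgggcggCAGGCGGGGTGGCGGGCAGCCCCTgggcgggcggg
The same stretch of PSMB3 is given because it holds both an E-box, CACGTG, and a TGACNNNGC match, in capitals in that order, beside 1 of the strongest anti-MITF sites of the set.
PSMB3, chr17:38752491-38752740, plus strand: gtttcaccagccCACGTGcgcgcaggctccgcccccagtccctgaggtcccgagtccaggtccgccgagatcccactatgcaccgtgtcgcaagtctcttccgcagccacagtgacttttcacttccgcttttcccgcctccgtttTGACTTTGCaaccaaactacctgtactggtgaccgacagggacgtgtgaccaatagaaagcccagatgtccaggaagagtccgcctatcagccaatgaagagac

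The libraries of the 2 lines differed in size. Each of the 6 factor lists of GFP cells held between 14879 and 26221 peaks and each of the 6 of MAFG cells between 1836 and 2818. The weakest peak called had a −log10 p between 4.19 and 4.45 in GFP-cell lists and between 5.20 and 5.47 in MAFG-cell lists, so that the limit of calling moved with the line, and the 2 cannot be told apart in any count below. As a check of the anti-MAFG antibody, chosen with earlier results of these data known, 5 textbook targets of NRF2 and small MAF were examined. HMOX1, NQO1, TXNRD1 and SLC7A11 had an anti-MAFG site in 3 of 3 MAFG-cell libraries and GCLM in 2. The share of all protein-coding genes with such a site in this line was 1.80%. For GFP cells 4 of the 5 had an anti-MAFG site, against 26.8% of all genes. Anti-MITF sites were found at 4 of the 5 in that line too, and at 1 in the MAFG line. The GFP-cell count was thus the same for both antibodies and cannot serve as a check of anti-MAFG.

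In MAFG cells, 3 of the 36 proteasome genes had an anti-MAFG site, PSMC2, PSMC5 and PSMD1, and all 3 encode parts of the 19S cap. This was 8.33% of the set, against 1.80% of all protein-coding genes and a matched share of 2.39%. Each of the 3 had its site in 3 of 3 libraries, where the share of all genes was 1.06% and the matched share 1.40%. In single libraries 3, 4 and 4 members had a site, or 10.2% ± 1.60 (SD, n = 3), and all genes 1.88%, 1.82% and 2.75%. PSMD14 in replicate 3 and PSME4 in replicate 2 made the count 5 when 1 library was enough, against 3.58% of all genes and a matched share of 4.67%. The same 3 genes had a site when any 1 of the MAFG-cell libraries was left out. The 3 genes are a small number, and what sets them apart from the other 33 was not tested.

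PSMC2, an ATPase of the ring that threads substrates into the core, had the strongest anti-MAFG site of the set in MAFG cells. The gene lies at chr7:103347524-103369395 on the plus strand and its RefSeq start is at position 103347643. In MAFG cells the anti-MAFG peaks had fold enrichments, by the authors' peak caller, of 9.21, 11.2 and 13.4, at percentiles 75.5, 90.5 and 93.3 of their lists. Their summits lay 174, 179 and 211 bp downstream of the start. All 3 replicates thus placed a peak in the upper part of their list at one point just inside the gene. In GFP cells 2 of 3 anti-MAFG lists held a peak there, with fold enrichments of 4.85 and 5.78, and replicate 3 held none.

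The same point of PSMC2 was also under anti-MITF peaks in every library. Fold enrichments were 8.77, 9.97 and 9.36 in MAFG cells and 3.97, 5.39 and 5.74 in GFP cells. In all, 11 of the 12 factor libraries had a summit between positions 103347781 and 103347859, a span of 78 bp. PSMC2 was the only one of the 36 with sites of both antibodies in MAFG cells, where 0.344% of all genes had both and the matched share was 0.480%. Both antibodies thus gave a peak at one place in both lines, and whether the IgG control also did was not tested. A second peak about 3 kb upstream, in 2 GFP-cell and 2 MAFG-cell anti-MAFG lists, was nearest the start of DNAJC2, a neighbouring chaperone gene.

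PSMD1, the scaffold subunit of the cap that docks ubiquitin-handling proteins, had its anti-MAFG site at the start itself. The gene lies at chr2:231056867-231172827 on the plus strand. In MAFG cells the 3 peaks had fold enrichments of 7.51, 5.91 and 7.98, at percentiles 57.7, 31.1 and 62.7 of their lists, and summits 12, 35 and 12 bp upstream of the start. In GFP cells replicates 1 and 2 had peaks of 10.7 and 4.74 with summits 147 and 33 bp upstream, and replicate 3 had none. All 3 MAFG-cell peaks and both GFP-cell peaks covered the TGACTGAGC match shown above, which begins 39 bp downstream of the start. The MAFG-cell summits were 51, 74 and 51 bp from it and the GFP-cell summits 186 and 72 bp. The match is a description of these letters and not a measured binding site. The anti-MITF sites of PSMD1 in GFP cells lay elsewhere, between 4152 and 4431 bp from the far end of the gene in 3 of 3 lists, with 1 further peak near the start in replicate 2.

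PSMC5, another ATPase of the ring, had sites lower in the lists. It lies at chr17:63827431-63832019 on the plus strand, head to head with FTSJ3, a gene for ribosomal RNA processing. In MAFG cells the anti-MAFG peaks had fold enrichments of 4.42, 4.41 and 6.39, at percentiles 4.77, 4.11 and 34.1, so that replicates 1 and 2 placed them near the foot of their lists. The summits lay 100, 123 and 191 bp downstream of the PSMC5 start, and the FTSJ3 start was the nearer one in replicates 2 and 3, at 109 and 41 bp. The sites therefore cannot be given to PSMC5 rather than to FTSJ3. In GFP cells only replicate 1 had an anti-MAFG peak, with a fold enrichment of 3.03 at percentile 0.212 of its list.

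The 2 members with an anti-MAFG site in a single MAFG-cell list were PSMD14, the deubiquitinase of the cap, and PSME4, an activator also known as PA200. PSMD14 had a peak of fold enrichment 6.67 in replicate 3, 164 bp downstream of its start. In GFP cells it had peaks of 6.78 and 11.1 in replicates 1 and 2, 245 and 128 bp downstream. PSME4 had a peak of 4.96 in replicate 2 of MAFG cells, 1278 bp downstream of its start, and GFP-cell peaks of 7.76, 7.07 and 7.68 between 1151 and 1770 bp downstream. The single MAFG-cell peak of each gene thus lay in the same region as its GFP-cell peaks.

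**Figure D1:**
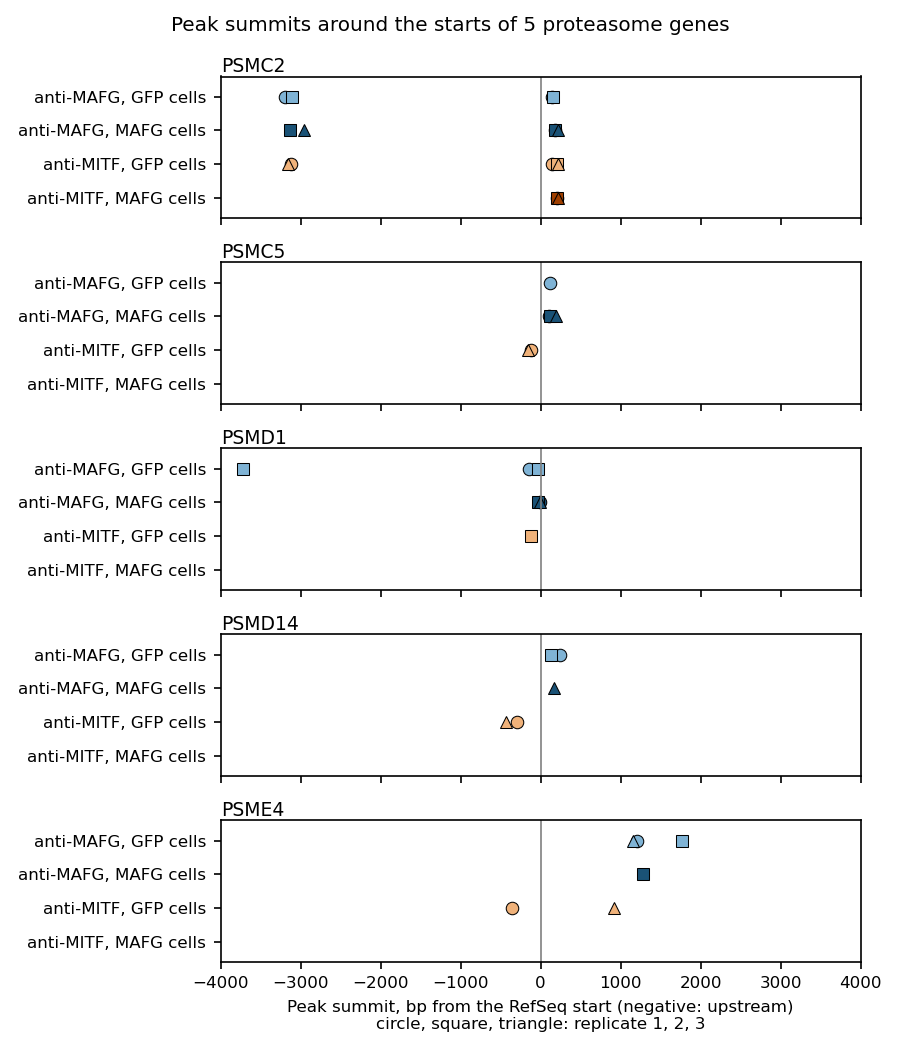
Position of the anti-MAFG and anti-MITF peak summits around the RefSeq start, in bp from it, for the 5 proteasome genes with an anti-MAFG site in any MAFG-cell library. Rows are groups and symbols are replicates. The GFP-cell anti-MITF peaks by the far end of PSMD1 lie outside the range shown. At PSMC2 the summits of 11 of 12 libraries fall within 78 bp, at PSMD1 the 3 MAFG-cell summits fall 12 to 35 bp upstream, and only PSMC2 has summits in the anti-MITF libraries of MAFG cells.

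In GFP cells the anti-MAFG antibody gave a site at 13 of the 36 genes, which was 36.1% against 26.8% of all protein-coding genes. The matched share was 35.7%, so that the set did not stand apart from genes of like length and H3K4me3 state. The 3 libraries gave 17, 15 and 9 members, or 38.0% ± 11.6 (SD, n = 3), with matched shares of 43.9%, 39.3% and 26.0%. The set followed its matched genes in each library, and the library with the fewest peaks gave the fewest members. A site in 3 of 3 libraries was found at 8 members, 22.2% against 15.3% of all genes and a matched share of 20.2%. A site in at least 1 library was found at 20, 55.6% against 39.3% and a matched share of 53.2%. Without replicate 1 or without replicate 2 of this group the count was 8, and without replicate 3 it was 13.

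The activators had the largest share of anti-MAFG sites among the roles in GFP cells, at 3 of 4, followed by 3 of 7 alpha subunits, 2 of 6 ATPases, 2 of 7 beta subunits and 3 of 11 non-ATPases, with none at POMP. These counts are too small to order the roles. PSME1 and PSME2, which together form the activator PA28 used in antigen processing, stand side by side on chromosome 14 and share peaks. The shared GFP-cell anti-MAFG peaks lay between positions 24140625 and 24142226, nearest the start of EMC9, so that 1 site counts for both genes. PSME2 also had a peak of its own in each list, with fold enrichments of 9.96, 7.98 and 10.2 and summits 386, 391 and 442 bp upstream of its start. At percentiles 83.6, 77.4 and 94.0 it was the strongest GFP-cell anti-MAFG site of the set that all 3 lists held, but the RNF31 start was closer, at 121 to 177 bp.

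Other members with an anti-MAFG site in 3 of 3 GFP-cell lists had them in several places. PSMD6, a structural subunit of the cap, had peaks of 7.30, 8.73 and 6.36 with summits 278, 167 and 135 bp downstream of its RefSeq start. PSMA3, an alpha subunit, had peaks of 4.27, 4.20 and 4.00 within 42 to 256 bp of its start, on average at percentile 8.18 of the lists. PSMC6, an ATPase, had peaks of 4.21, 4.20 and 3.77 between 195 and 264 bp upstream of its start and further peaks near STYX at its other end. PSMD6, PSMA3 and PSMC6 thus had peaks by their own starts in all lists, at different ranks. For PSMA2, an alpha subunit, the peaks of all 3 lists were nearer the start of MRPL32, at 136 to 292 bp, with 1 more by its own start in replicate 1. For PSMB1, a beta subunit whose own start has no entry in the RefSeq windows, the nearest start was that of TBP, the TATA-binding protein, at 376 to 489 bp. PSMA5, an alpha subunit, had the highest mean percentile, 86.0, from 2 lists, and its strongest peaks there were at its far end near SORT1. For 24 of the 51 GFP-cell anti-MAFG peaks near a member with a known start, the nearest start was another gene's.

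Sites of the anti-MITF antibody were the most frequent. In GFP cells 24 of the 36 genes had one, 66.7%, against 37.3% of all protein-coding genes and a matched share of 57.0%. Each of the 3 libraries gave 23 members, with matched shares of 57.2%, 56.7% and 56.4%. A site in 3 of 3 libraries was found at 17 members, 47.2% against 26.6% of all genes and a matched share of 41.5%. A site in at least 1 library was found at 28, 77.8% against 48.0% and a matched share of 71.9%. The set was above its matched genes in all 3 libraries, by 9.69 percentage points in the group count. That gap was 2.39 points when genes were matched on 3 levels of H3K4me3 strength and 3.06 points without replicate 3, and it was -0.960 points, with the set below its matched genes, when each list was cut to the same number of best peaks. The gap therefore depended on these choices. Counted only by summits within 1000 bp of the gene's own start, 13 of 31 members with a known start had an anti-MITF site, 41.9%, against 27.7% of genes and a matched share of 41.1%.

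By role, 6 of 7 beta subunits, 4 of 7 alpha subunits, 4 of 6 ATPases, 6 of 11 non-ATPases, 3 of 4 activators and POMP had an anti-MITF site in GFP cells. PSMD6 was the strongest, with fold enrichments of 15.7, 17.4 and 10.7 at percentiles 97.6, 98.9 and 89.9, and summits 308, 235 and 379 bp upstream of its start. PSMB3, a beta subunit without cutting activity, had peaks of 11.3, 12.4 and 8.94 with summits 520, 625 and 493 bp upstream. Of these, only the peak of replicate 1 covered the whole CACGTG shown above, which begins 238 bp upstream of the start. PSMC3, an ATPase, had peaks of 11.3, 8.28 and 9.57 with summits 272 to 416 bp upstream. PSMD6, PSMB3 and PSMC3 each had the peak on the upstream side of their own start in all 3 lists.

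PSME2 had anti-MITF peaks of 9.09, 10.5 and 10.1 at the place of its anti-MAFG site, with RNF31 again the nearer start. PSMA5 averaged percentile 87.1, mostly from peaks near SORT1, and also had peaks within 287 to 659 bp of its own start in each list. PSMB2, a beta subunit, had peaks of 9.07, 6.32 and 8.38 with summits 257, 286 and 261 bp upstream, and others near its far end. PSMB4, a beta subunit, had its strongest peak of each list 145 to 165 bp from the far end of its short gene body. PSMD2, the other large scaffold of the cap, averaged percentile 70.5, but its strongest peak in each list lay within 372 bp of the start of EIF4G1, a translation initiation gene. POMP, which is needed to build the core, had peaks of 8.61, 7.82 and 6.70 with summits 1013, 1008 and 319 bp upstream. Of the catalytic beta subunits, PSMB5 had an anti-MITF site in 3 lists, PSMB7 in 2 and PSMB6 in none. The PSMB5 peaks were not at one place. They lay by the far end in replicate 1, at both ends in replicate 2 and by the start in replicate 3, at percentiles from 1.60 to 44.7.

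In MAFG cells 4 of the 36 genes had an anti-MITF site, PSMA5, PSMB2, PSMC2 and PSMD6. This was 11.1% against 4.63% of all protein-coding genes and a matched share of 7.04%, and the libraries gave 5, 3 and 4 members. PSMA5 and PSMC2 had it in 3 of 3 libraries, 5.56% of the set against 2.63% of all genes and a matched share of 4.08%. Without replicate 1 the count was 2. PSMC2 was at percentiles 81.3, 88.8 and 86.6, while PSMD6, the strongest in GFP cells, had peaks of 5.07 and 5.93 in replicates 1 and 3 at percentiles 14.9 and 35.7 and none in replicate 2. The sites of PSMA5, near SORT1, and of PSMB2 lay by the far ends of these genes. PSMA3 in replicate 3 and PSMB3 in replicate 1 had a single peak each, of 5.73 and 5.83, which made 6 members with a site in at least 1 library, 16.7% against 8.48% of all genes and a matched share of 13%. Summits within 1000 bp of the own start were left at PSMC2 and PSMD6, 6.45% of 31 members against 2.82% of genes and a matched share of 4.29%.

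**Figure D2:**
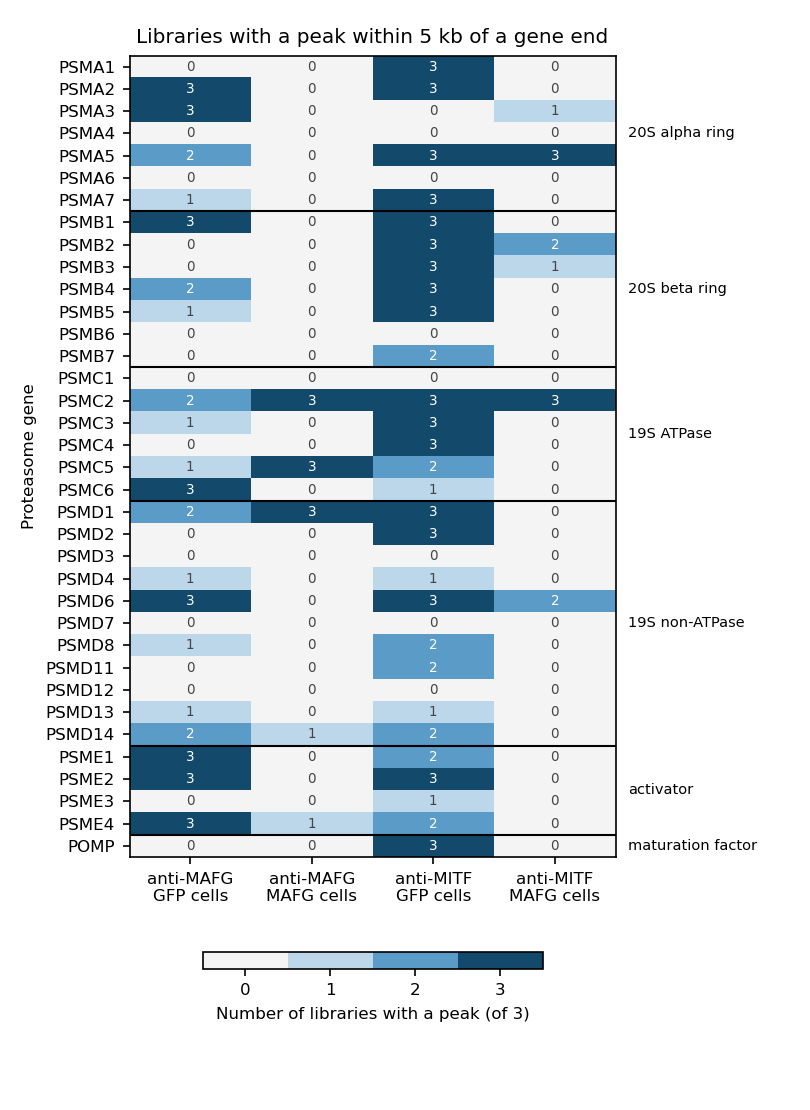
Number of libraries, of 3 in each group, with a peak within 5 kb of either end of each of the 36 proteasome genes (rows, ordered by role). Darker cells mark more libraries. The GFP-cell columns are filled at 13 and 24 genes in at least 2 libraries and the MAFG-cell columns at 3 and 4, with PSMC2 filled in all 4 columns.

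**Figure D3:**
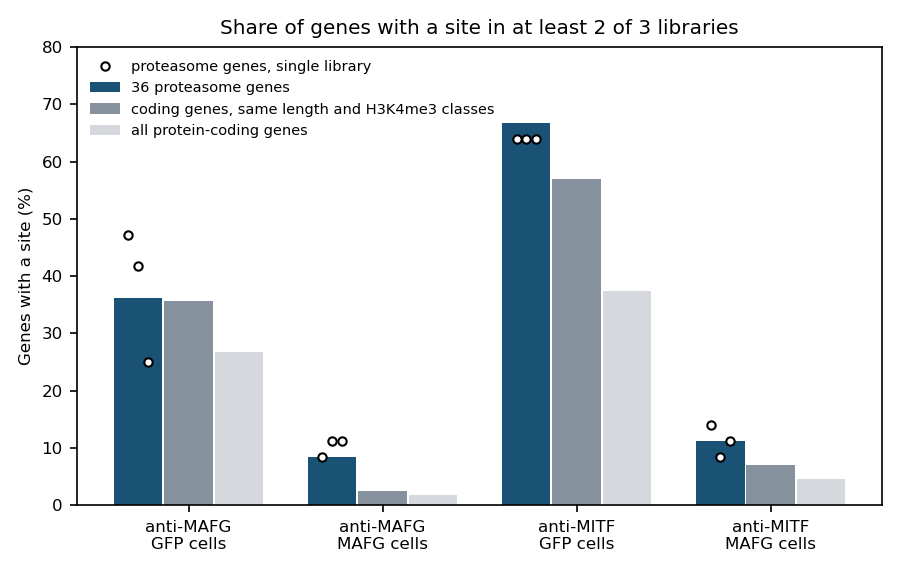
Share of genes with a site in at least 2 of 3 libraries, in percent, for the 36 proteasome genes, for protein-coding genes of the same length and H3K4me3 classes, and for all protein-coding genes. Points are the share of the 36 in each single library. The anti-MAFG bars of GFP cells stand at 36.1% and 35.7%, and those of MAFG cells at 8.33% and 2.39%.

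Between the lines, the counts of members in single libraries did not overlap, and nor did the shares of all genes. For anti-MAFG, 9 to 17 members had a site in the GFP-cell libraries and 3 or 4 in the MAFG-cell libraries. The shares of all genes were 19.5% to 32.6% and 1.82% to 2.75%. Sites in 3 of 3 GFP-cell and 0 of 3 MAFG-cell libraries were found at 7 members, PSMA2, PSMA3, PSMB1, PSMC6, PSMD6, PSME1 and PSME2, which was 19.4% against 13.2% of all genes and a matched share of 17.4%. The opposite was seen at 0 members and at 0.0549% of genes. For anti-MITF, 23 members per GFP-cell library stood against 3 to 5 in MAFG cells, where the shares of all genes were 37.0% to 37.7% and 4.82% to 5.47%. The GFP-only sites numbered 12, at POMP, PSMA1, PSMA2, PSMA7, PSMB1, PSMB4, PSMB5, PSMC3, PSMC4, PSMD1, PSMD2 and PSME2, or 33.3% against 3814 of all 20037 genes (19%) and a matched share of 29.7%. The opposite was seen at 0 members and at 0.00% of genes. Fewer sites in MAFG cells were thus a feature of the genes at large, with the members close to their matched share.

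This comparison turned for anti-MAFG when the 1836 peaks with the best p-values of each list were used, which is the whole of the shortest list. GFP cells then had an anti-MAFG site at 1 member, PSME2, and MAFG cells at the same 3 as before, PSMC2, PSMC5 and PSMD1, none of which had a peak left in any anti-MAFG list of GFP cells. For anti-MITF both lines had 2 members, PSMD6 and PSME2 in GFP cells and PSMC2 and PSMD6 in MAFG cells. Under this setting 2.25% and 1.63% of all genes had an anti-MAFG site in GFP and MAFG cells, and 4.15% and 3.63% an anti-MITF site.

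**Figure D4:**
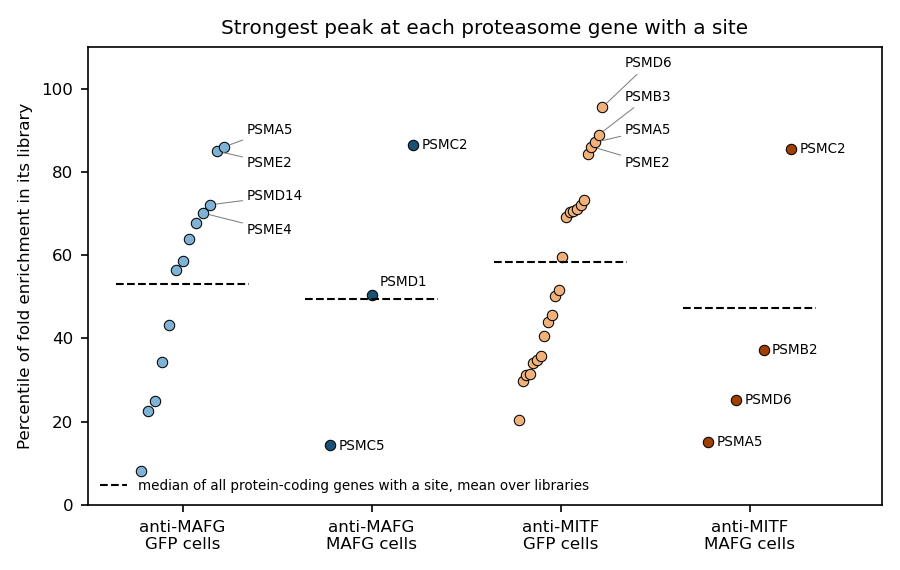
Mean percentile of the authors' fold enrichment within the library, for the strongest peak at each proteasome gene with a site in at least 2 of 3 libraries; dashed lines are the median of all protein-coding genes with a site. Members spread over the range in GFP cells, from PSMA3 at 8.18 to PSMA5 at 86.0 for anti-MAFG, and in MAFG cells only PSMC2 lies above 80 for either antibody.

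Sites of both antibodies in GFP cells were found at 11 members, 30.6%, against 20.7% of all genes and a matched share of 29.0%. At 8 of these 11, PSMA5, PSMB1, PSMC2, PSMD14, PSMD6, PSME1, PSME2 and PSME4, the regions of the 2 antibodies overlapped. Counted over the whole set, overlap was found at 8 of 36 members, against 3648 of all 20037 genes (18.2%). Sites of both antibodies, with or without overlap, were found at 4142 of all genes. At PSMA2 the peaks of the 2 antibodies lay at opposite ends of the gene. At PSMB4 single anti-MAFG peaks lay inside anti-MITF peaks, but those of the 2 anti-MAFG lists were in different places, and at PSMD1 only 1 anti-MITF list had a peak by the anti-MAFG site. Without replicate 1 or replicate 2 of the GFP-cell anti-MAFG group, 6 members had sites of both.

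Sites by the gene's own start gave a narrower picture for anti-MAFG. A summit within 1000 bp of the start in at least 2 of 3 libraries was found at 8 of 31 members in GFP cells, 25.8% against 17.7% of genes and a matched share of 23.5%. In MAFG cells it was found at PSMC2, PSMC5 and PSMD1, 9.68% against 0.738% of genes and a matched share of 1.01%. All 3 MAFG-cell sites thus lay at starts. At PSMC5 the FTSJ3 start was the nearer one in replicates 2 and 3, so that site cannot be given to PSMC5 alone.

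Of the 36 genes, 29 had an anti-MAFG or anti-MITF peak in at least 1 of the 12 libraries, against 54.7% of all genes and a matched share of 78.5%. The 7 with none were the alpha subunits PSMA4 and PSMA6, the catalytic beta subunit PSMB6, the ATPase PSMC1 and the cap subunits PSMD3, PSMD7 and PSMD12. Within 5000 bp of a gene end, no anti-MAFG peak was found in any of 6 libraries at 16 members. These were the 7 and POMP, PSMA1, PSMB2, PSMB3, PSMB7, PSMC4, PSMD2, PSMD11 and PSME3. Of all genes 60.3% had none, and the matched share was 46.4%. No anti-MITF peak was found at the same 7, where 51.9% of genes had none and the matched share was 28.0%. Windows at the gene ends missed 2 starts, since the RefSeq start of PSMA6 lies 13759 bp and that of PSMA1 15510 bp inside the annotated gene. Each had an anti-MAFG peak within 5000 bp of that start in 1 GFP-cell library.

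The H3K4me3 mark was at nearly every member. A peak was found at 35 of 36 genes in GFP cells, against 59.9% of all genes. The matched share there, 97.2%, is fixed by the matching itself. In MAFG cells a peak was found at 35 of 36, or 97.2%, against 55.8% of all genes and a matched share of 90.5%. PSMA6 was the exception in both lines, and it had an H3K4me3 peak at its RefSeq start. The strongest peak of a member had a median percentile of 78.2 in GFP cells and 83.4 in MAFG cells, where all genes with a peak had 64.8 and 60.9. PSMB6 was lowest in both lines, at 39.3 and 15.6, and PSMD2 at 99.5 in GFP cells and PSMA7 at 99.9 in MAFG cells were highest. The PSMD2 peak at 99.5 lay 798 bp from the start of EIF4G1, and the peak at the PSMD2 start was at percentile 94.0. Of the 7 genes without a factor peak at the gene ends, the 6 other than PSMA6 all had an H3K4me3 peak there. A summit within 1000 bp of the start was found at 29 of 31 members in GFP cells, against 52.5% of genes and a matched share of 79.2%, and at 30 of 31 in MAFG cells, against 49.6% and a matched share of 75.4%. With 1 library per line the mark has no replicate check.

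In the promoter windows, 250 bases upstream to 50 downstream of the RefSeq start and read on both strands, TGACNNNGC was found at 8 of 31 members, 25.8%. It was found in 14.3% of 15843 protein-coding promoters and in 15.2% of those with H3K4me3 in GFP cells. TGCTGA, part of the small MAF recognition sequence, was found at 4 members, 12.9%, in 15.1% of promoters and in 12.1% of those with H3K4me3. The MITF motifs CACGTG and CATGTG were found at 2 members each, 6.45%, and in 8.88% and 8.43% of promoters. Among promoters with H3K4me3 their shares were 10.4% and 6.18%. No match overlapped one of another motif. In the promoters with a TGACNNNGC match, 1 of 9 matches was under anti-MAFG peaks in at least 2 libraries, at PSMD1, in both lines, and those of PSME2 and PSME4 were each covered in 1 GFP-cell library. PSMC2 and PSMC5, the other members with an anti-MAFG site in MAFG cells, had no match of these letters in the window, which ends 50 bp past the start, short of their summits. Matches also lay under peaks of the other antibody. The CATGTG of PSMA3 was under anti-MAFG peaks and the TGCTGA of PSMB5 under anti-MITF peaks, each in 2 GFP-cell libraries.

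The other genes of the pathway were read from a list of 25. It holds immunoproteasome and tissue subunits, assembly chaperones, further cap subunits and enzymes, the inhibitor PSMF1 and genes that control NFE2L1. Anti-MAFG sites were found at 12 of them in GFP cells and 0 in MAFG cells, where the shares of all genes were 26.8% and 1.80%. Anti-MITF sites were found at 13 and 3, where the shares of all genes were 37.3% and 4.63%. The 3 with a MAFG-cell anti-MITF site were the assembly chaperones PSMG1, in 2 libraries, and PSMG3, in 3, and the cap deubiquitinase UCHL5, in 2. An anti-MAFG site in MAFG cells was therefore counted at 3 of 36 subunit genes and 0 of 25 further genes, a difference that was not tested. The 6 genes that control NFE2L1 were named after their values were seen. Of these 6, 4 had an anti-MAFG site in GFP cells, 3 of them in 3 of 3 libraries. Among all genes, 26.8% had a site and 15.3% had it in 3 of 3 libraries. All 6 had an H3K4me3 peak in both lines, and no matched share is given for the list of 25. NFE2L1 itself had GFP-cell anti-MAFG peaks of 12.3, 10.9 and 5.21 within 84 to 108 bp of its start and anti-MITF peaks of 15.9, 10.9 and 10.8 at the same place, and none in MAFG cells. VCP, which extracts NFE2L1 from the membrane, and DDI2, the protease that activates it, had anti-MAFG peaks in 3 of 3 GFP-cell libraries. NGLY1, which removes its glycans, had them in 2, and SEL1L and SYVN1 of the membrane extraction pathway in 1. In GFP cells the strongest anti-MAFG peak of each list averaged percentile 19.1 at DDI2 and 73.8 at VCP. None of the 6 had an anti-MAFG peak in MAFG cells.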

How the data were processed

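CUT&RUN peak lists of 14 libraries were used. Each list belongs to 1 library, and replicates were not pooled for calling. The deposited lists give each peak's fold enrichment, a linear ratio, and its −log10 p and −log10 q, all from the authors' peak caller, with the lowest −log10 q at 2.00. Per the submitters' processing notes, the tools include cutadapt 1.8.1, Bowtie2 2.4.1, MACS2 2.1.1.20160309 and ChIPseeker 1.32.1 and the build is GRCh38. The control used in calling is not given in the sources used here. Fold enrichments were ranked only within a list, as percentiles, and are otherwise printed as the authors' values. The lists give no read depth, so no counting interval can be given.

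Gene ends come from the RefSeq table of GRCh38.p14 and starts and sequences from RefSeq promoter windows, with 31 of the 36 genes and 15843 protein-coding genes matched. A site was an overlap of at least 1 bp with the 5000 bp around either gene end, and a group count needed 2 of 3 libraries. Matched shares are the shares among other protein-coding genes in 5 length classes by H3K4me3 peak in GFP cells, weighted by the members in each class. No test was run. Per group, the 10 members with the most libraries and then the best mean percentile were eligible to be named, with all members with a MAFG-cell site, with no site of an antibody or with no H3K4me3 peak, and other proteasome genes with a MAFG-cell site. The controllers of NFE2L1 were named after their values were seen. The members and lists were chosen with earlier results of these data known. The site count was tested on simulated data and found 200 of 200 planted sites. Python 3.11.15, numpy 2.4.6, pandas 2.3.3 and matplotlib 3.10.9 were used.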

Additional observations from a re-analysis of the deposited data

How the results depend on the processing

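No paired analysis was possible because no result comes from a test. Of 178 alternatives, 127 were classed as the same, 45 moved and 6 reversed. Those classed as the same kept direction but not always exact size. For anti-MITF in GFP cells they took in counts from 16 to 28 beside the main 24. A window around the RefSeq start and the demand for the same merged region in 2 libraries were chosen after seeing the data. Where a cause is not given by the construction of an alternative (fewer peaks, fewer libraries, a wider window), the cause was not tested.

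Counts of the 36 genes with a site moved as follows. For anti-MAFG in GFP cells the count of 13 was 1 with an equal number of best peaks, 8 with 3 of 3 libraries, 20 with 1 library, and 8 to 13 without 1 library. For anti-MAFG in MAFG cells the count of 3 was 5 with 1 library and otherwise stayed at PSMC2, PSMC5 and PSMD1. For anti-MITF in GFP cells the count of 24 was 2 with an equal number of best peaks and 16 to 28 in the other alternatives. For anti-MITF in MAFG cells the count of 4 was 2 with −log10 q of at least 5, with an equal number of best peaks, with 3 of 3 libraries and with the window around the RefSeq start, and 2 to 3 without 1 library. Counts of GFP-only sites were 1 for anti-MAFG and 0 for anti-MITF with an equal number of best peaks. Counts of MAFG-only anti-MAFG sites were 3 with an equal number of best peaks, 1 (PSMC5) with −log10 q of at least 5, and 0 to 1 without 1 library. MAFG-only anti-MITF sites numbered 1 (PSMC2) with an equal number of best peaks. Sites of both antibodies in GFP cells were at 7 with a window of 1000 bp, 1 with an equal number of best peaks, 4 with 3 of 3 libraries, 19 with 1 library, and 6 to 11 without 1 library. In MAFG cells they were at 2 over the whole gene body.

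The share of members minus the matched share, in percentage points, reversed for anti-MAFG in GFP cells from 0.392 to -0.213 with an equal number of best peaks, -0.557 with the H3K4me3 class of MAFG cells, -1.76 with 3 levels of H3K4me3 fold and -0.621 for the same merged region. It was 3.78 with a window of 1000 bp, 3.03 with −log10 q of at least 5 and -0.636 to 4.27 without 1 library. For anti-MAFG in MAFG cells the 5.94 points were 4.08 over the whole gene body and 9.22 with 1 library, and stayed above 0 in all alternatives run. For anti-MITF in GFP cells the 9.69 points were -0.960 with an equal number of best peaks, 3.73 with a window of 1000 bp, 6.03 over the gene body, 10.5 with the summit inside the window, 7.11 with −log10 q of at least 5, 5.77 with 3 of 3 libraries, 5.90 with 1 library, 7.44 with the H3K4me3 class of MAFG cells, 2.39 with 3 levels of H3K4me3 fold, and 3.06 to 9.20 without 1 library. For anti-MITF in MAFG cells the 4.07 points were 1.29 with −log10 q of at least 5, 0.127 with an equal number of best peaks, 1.47 with 3 of 3 libraries, and 0.593 to 3.26 without 1 library.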
